A study of Mus musculus with 6 samples.

Results

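The transcripts of the Mediator complex were examined in mouse morulae in which *Yy1*, the gene of the zinc finger transcription factor YY1, had been knocked down (KD). The subunits were taken by their symbols: every gene whose symbol is Med followed by a number, with or without the letter l, together with *Cdk8*, *Cdk19* and *Ccnc*. This rule took 33 of the 55364 genes listed, and all 33 passed the filter on low values. They fall into a head of 7 subunits, a middle of 9, a tail of 9 and a kinase module of 7, with *Med14*, the scaffold that runs through the complex, kept apart as 1. BDF1 oocytes were fertilised in vitro with BDF1 sperm, siRNA was injected at the zygote stage, and the embryos were cultured in KSOM and collected as morulae. The control KD group and the *Yy1* KD group, which received siRNA against *Yy1*, each comprised 3 libraries, every library was made from pooled morulae, and no other allele or agent separated the groups. RNA was measured with a SMART-Seq stranded kit, and levels were given as TPM (transcripts per 1000000), a scale on which the read pairs of a gene are divided by its exon length and each library is made to sum to 1000000.

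Mediator is the large assembly that stands between transcription factors bound at enhancers and RNA polymerase II at the promoter. Activators contact mainly the tail and *Med1*, the head and middle hold the polymerase and its general factors, and the kinase module, which pairs CDK8 or CDK19 with cyclin C, MED12 and MED13, binds the core reversibly and keeps the polymerase from docking while it is there. In embryonic stem cells Mediator occupies active enhancers and promoters together with pluripotency factors, and loss of several of its subunits is lethal to mouse embryos.

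The libraries held between 11793509 and 24417789 read pairs, as recovered from the TPM values and exon lengths, and the subunits between 98 and 4790 read pairs each. Libraries of the same group correlated more closely (r = 0.955 to 0.962 on log2(TPM + 1)) than libraries of different groups (0.935 to 0.950). *Yy1* itself (ENSMUSG00000021264.12) was at 96.0, 100.2 and 89.8 TPM in control KD and at 8.73, 8.90 and 8.32 TPM in *Yy1* KD morulae, a remainder of 9.07% of the control mean. All 10 markers of the morula and blastocyst reached 1 TPM, and none was called by limma (2 had an unadjusted p under 0.05), whereas 1 of 8 markers of cumulus and granulosa cells and 2 of 5 sperm markers did so, with *Fshr*, *Has2*, *Cyp19a1* and *Tnp1* at 0. The morula and blastocyst markers summed to 2687 to 2957 TPM in control KD and to 2196 to 2618 TPM in *Yy1* KD, without overlap. Of these 10 markers 8 were lower, beside 9167 of the 17353 genes tested, and their part in the results below was not tested. The 7 oocyte markers summed to 47.9 to 65.1 TPM in control KD and to 49.7 to 66.6 TPM in *Yy1* KD. In such bulk samples fewer cells of a type and less RNA per cell cannot be told apart, and the p-values below measure the spread between these pools.

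Mediator subunits were well expressed in control KD morulae. Their median level was 31.0 TPM, against 8.75 TPM for all genes tested, and each subunit ranked between the 55.9th and the 92.5th percentile of those genes. *Med6*, a head subunit, and *Med19*, of the middle, led with 120.3 ± 8.31 and 119.4 ± 12.8 TPM (SD, n = 3) and did not differ beyond that spread. *Med10*, *Med4* and *Med29* followed at 69.0, 64.5 and 62.5 TPM, 20 subunits lay between 20 and 50 TPM, and 7 lay below 20 TPM. The lowest were *Med16* (12.9 ± 0.958 TPM), *Med12* (12.9 ± 0.582 TPM), *Med15* (12.4 ± 2.16 TPM) and *Med18* (11.7 ± 2.24 TPM), which overlapped one another, and the highest level was 10.3 times the lowest. These levels are divided by the length of all annotated exons of a gene, which need not be that of the transcripts present. The order of the subunits therefore rests on the annotation.

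**Figure D1:**
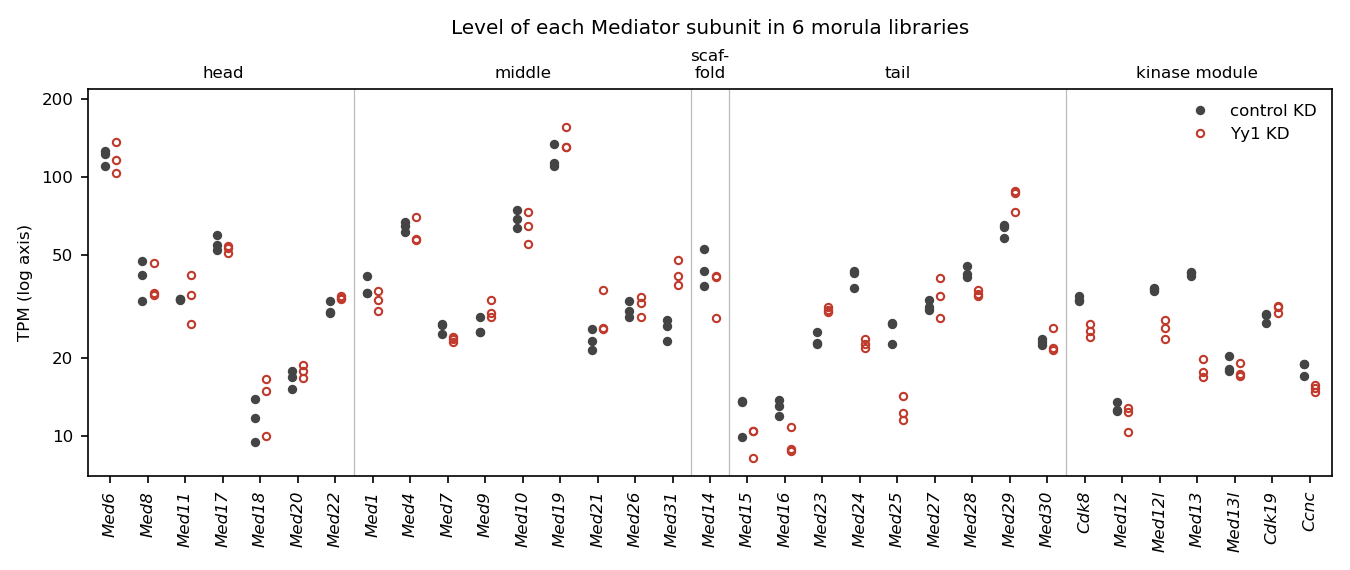
TPM of each of the 33 Mediator subunits in the 3 control KD and the 3 *Yy1* KD libraries on a log axis, grouped by module, with 1 point per library. The points of *Med13*, *Med24* and *Med25* stand clearly apart between the groups, whereas those of *Med6*, *Med11* and *Med30* overlap.

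Upon *Yy1* KD, 5 of the 33 subunits (15.2%) changed with an adjusted p under 0.05 by limma on log2(TPM + 1), against 6.11% of the 17353 genes tested. The subunits were chosen with earlier results of these data known, so these shares are a description and no measure of enrichment. *Med13*, *Med25*, *Med24* and *Med12l* were downregulated, beside 4.20% of all genes tested, and *Med31* was upregulated, beside 1.92%. The 3 control KD and 3 *Yy1* KD values did not overlap for 14 subunits, 9 of them lower and 5 higher in *Yy1* KD, where 30.1% of all genes tested were without overlap. For such a gene an exact permutation test over the libraries gives p = 0.1, the smallest that 3 against 3 allows. The other 28 subunits did not pass the test, and their log2 fold changes ran from -0.41 to 0.40. The median log2 fold change of the 33 subunits was -0.06, against -0.02 for all genes tested, and their median size of change was 0.21, against 0.26. The called changes lay in the kinase module, the tail and 1 subunit of the middle, and 16 subunits had a size of change under 0.2. Of all calls 68.6% were lower, a share that was 58.5% with quantile normalization and 57.6% with limma-voom on recovered read pairs. Under quantile normalization 3 subunits were called lower and 3 higher, beside 5.39% of all genes tested called in either direction. Under limma-voom 5 subunits were called lower and 2 higher, beside 12.1% of all genes tested there. With quantile normalization the median of the subunits was 0.01.

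**Figure D2:**
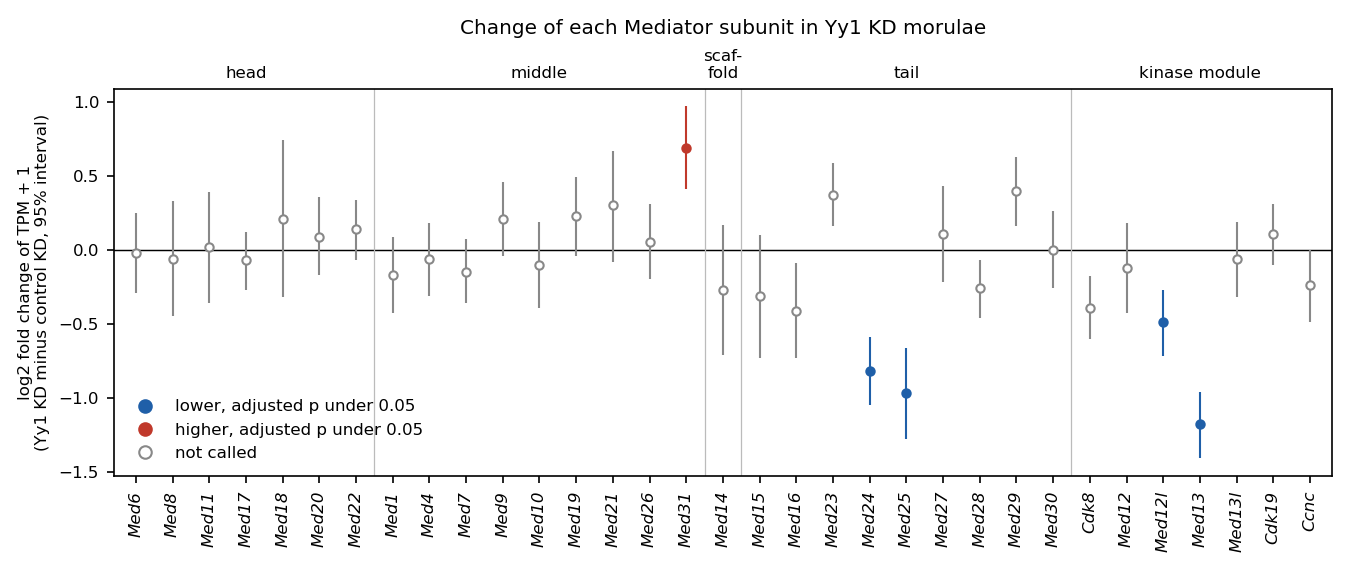
Log2 fold change of TPM + 1 (*Yy1* KD minus control KD) of each Mediator subunit by module, with its 95% confidence interval from limma, and filled points for an adjusted p under 0.05. The filled points are *Med13*, *Med25*, *Med24* and *Med12l* on the lower side, from -1.18 to -0.49, and *Med31* at 0.69.

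The promoters of the subunits were searched for the YY1 consensus GCCATNTT, read on both strands and so also as AANATGGC, since YY1 binds such sites near transcription starts. RefSeq windows of GRCm38.p6, reaching from 250 bases before a start to 50 bases from it, were given for 28 subunits, and *Cdk19*, *Med8*, *Med23*, *Med24* and *Med30* had none. The consensus was found in 5 of the 28 (17.9%), against 10.4% of the 9767 genes tested that had a window and 6.96% of all 27025 genes with one. The 5 stretches are shown because they belong to subunits with fold changes of either sign, 30 bases each, 5′ to 3′ on the strand of the gene, with the match in capitals.
Med25, chr7:44892475-44892504, minus strand: tgccccgcacaAACATGGCcgtatcagcat
Med31, chr11:72215752-72215781, minus strand: ggttctcctggAAGATGGCtggctggcaac
Med29, chr7:28392648-28392677, minus strand: tctagcggaggAAAATGGCtgcgccccagc
Med21, chr6:146642597-146642626, plus strand: cgtgcgtggtgAACATGGCggatagactca
Med27, chr2:29346830-29346859, plus strand: tgtgacagctgcAACATGGCggacgtgctg
The match lay 69 bases before the start in *Med25*, within an annotated *Med25* exon, and 178 bases before it in *Med31*. In *Med29*, *Med21* and *Med27* it lay 25, 30 and 33 bases into the transcript and covered the annotated start codon. Of these 5, *Med25* was downregulated, *Med31* was upregulated, and *Med29*, *Med21* and *Med27* had log2 fold changes of 0.40, 0.30 and 0.11 that did not pass the test.

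The shorter core GCCAT, or ATGGC on the other strand, was in 12 of the 28 windows (42.9%), against 43.9% of the genes tested. The remaining downregulated subunits with a window held it just inside the transcript, and these 2 stretches are shown for comparison with the full matches, with the core in capitals.
Med13, chr11:86357556-86357585, minus strand: gaggcggcggtaATGGCggatggtgggttg
Med12l, chr3:59006990-59007019, plus strand: acatgagagatcATGGCcgccttcgggctt
In *Med12l* the core covered the annotated start codon, and in *Med13* it did not. Subunits that were not called held it too. It covered the start codon in *Med4* and *Med16*, with log2 fold changes of -0.06 and -0.41. Before the start it was found in *Med6*, *Med10* and *Med20*, with -0.02, -0.10 and 0.09. A match of letters is a description of the window and no measure of binding.

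In the head, which holds the polymerase and the general factors at the promoter, no subunit passed the test and none had an unadjusted p under 0.05, where 23.8% of all genes tested had one. The 7 log2 fold changes lay between -0.07 and 0.21, with a median of 0.02, and the summed level of the head was 309.8 TPM in control KD, against 311.4 TPM in *Yy1* KD. *Med6*, the most abundant, was at 126.6, 123.3 and 110.9 TPM in control KD and at 136.7, 103.9 and 116.8 TPM in *Yy1* KD, and *Med17*, the subunit on which the head is built, had a log2 fold change of -0.07. *Med22*, which pairs with MED11, was the only head subunit whose groups did not overlap. It was at 33.2, 30.1 and 29.8 TPM in control KD and at 34.7, 34.1 and 33.9 TPM in *Yy1* KD, a log2 difference of 0.14 (95% interval -0.07 to 0.34, adjusted p = 0.388). Its partner *Med11* had a log2 fold change of 0.02.

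In the middle, *Med31*, a small conserved subunit that docks on MED7, was upregulated. It was at 23.3, 28.1 and 26.7 TPM in control KD and at 38.5, 47.7 and 41.4 TPM in *Yy1* KD, so that the lowest *Yy1* KD value lay well above the highest control KD value. The means were 26.03 ± 2.42 and 42.5 ± 4.73 TPM, a 1.63-fold rise with a log2 fold change of 0.69 (SE 0.12, adjusted p = 0.0272). *Med31* (ENSMUSG00000020801.8, chr11:72211724-72215592, minus strand) shares 455 bases, 26.3% of its exons, with 4930563E22Rik on the other strand, and reads were counted without regard to strand, but that gene was between 0.284 and 0.968 TPM in every library. Its counts were also among the lowest of the called subunits, 209 to 515 read pairs. The call held without *Yy1* KD replicate 1 and was lost when any of the other 5 libraries was left out, at adjusted p between 0.0617 and 0.0892.

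The other 8 middle subunits did not pass the test, and their log2 fold changes lay between -0.17 and 0.30. *Med1*, the subunit that nuclear receptors contact, had -0.17, *Med26*, which brings in elongation factors, had 0.05, and *Med19* and *Med4* had 0.23 and -0.06. *Med7*, the docking partner of MED31, did not pass the test. It was at 24.8, 27.0 and 26.9 TPM in control KD and at 24.1, 23.1 and 23.7 TPM in *Yy1* KD, groups that did not overlap (log2 fold change -0.15, adjusted p = 0.382). *Med21*, which forms a hinge with MED7, had 0.30 with overlapping groups (adjusted p = 0.311). The sum over the middle was 423.6 ± 21.9 TPM in control KD, against 458.0 ± 17.7 TPM in *Yy1* KD, with overlap.

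*Med14*, the scaffold to which head, middle and tail attach, varied widely between pools. It was at 52.9, 38.0 and 43.4 TPM in control KD and at 28.5, 41.2 and 41.7 TPM in *Yy1* KD, so that 2 of the 3 *Yy1* KD values fell inside the control range. The log2 difference of -0.27 had a 95% interval of -0.71 to 0.17 (adjusted p = 0.428).

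The tail is where most activators bind. *Med25* and *Med24* were downregulated, beside 4.20% of all genes tested, and none was called higher. The groups did not overlap for 6 of the 9 subunits, 4 lower and 2 higher, beside 30.1% of all genes tested. An unadjusted p under 0.05 was found for 6 of the 9, beside 23.8% of all genes tested. The median log2 fold change was -0.26, and single values ran from -0.97 to 0.40. *Med27* to *Med30* were placed in the tail, and with them in the head the tail median was -0.41.

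*Med25*, which receives the activation domains of ETV factors and ATF6, was at 27.1, 27.5 and 22.8 TPM in control KD and at 14.3, 11.5 and 12.2 TPM in *Yy1* KD. Every *Yy1* KD value lay below every control KD value, and the mean fell to 49.3% of control (25.8 ± 2.62 to 12.7 ± 1.45 TPM, log2 fold change -0.97, SE 0.13, adjusted p = 0.0139). *Med25* (ENSMUSG00000002968.9, chr7:44876765-44892712, minus strand), whose promoter held the consensus 69 bases before the start, shares no exonic bases with another gene. *Med24*, which joins MED23 and MED16 to the core, was at 42.7, 43.4 and 37.2 TPM in control KD and at 22.7, 21.98 and 23.7 TPM in *Yy1* KD. The groups were far apart, and the mean fell to 55.5% of control (41.1 ± 3.42 to 22.8 ± 0.857 TPM, log2 fold change -0.82, SE 0.10, adjusted p = 0.0123). *Med24* (ENSMUSG00000017210.14) lies at chr11:98704591-98729435 on the minus strand and shares 81 bases with Gm22059, which did not exceed 3.72 TPM. Leaving out control KD replicate 1 ended the call of *Med24* (adjusted p = 0.0528), and the call of *Med25* was lost without control KD replicate 1, 2 or 3 or *Yy1* KD replicate 2 (0.0511 to 0.0618).

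*Med16*, the neighbour of MED24 in the tail, was at 13.1, 13.8 and 11.9 TPM in control KD and at 8.78, 10.8 and 8.92 TPM in *Yy1* KD, without overlap but not past the test (log2 fold change -0.41, adjusted p = 0.127). *Med28*, of the upper tail, was at 45.4, 42.4 and 41.2 TPM against 35.3, 36.6 and 34.9 TPM, likewise without overlap (-0.26, adjusted p = 0.111). *Med15*, the target of SREBP and SMAD factors, had -0.31 with overlapping groups (adjusted p = 0.326). In contrast, *Med23* and *Med29* were higher in all 3 *Yy1* KD libraries. *Med23*, the partner of the MAP kinase target ELK1, was at 22.7, 25.2 and 22.8 TPM in control KD and at 30.6, 30.1 and 31.6 TPM in *Yy1* KD (log2 fold change 0.37, 95% interval 0.16 to 0.59, adjusted p = 0.0610). *Med29*, of the upper tail, was at 64.2, 65.1 and 58.1 TPM against 73.5, 86.7 and 88.3 TPM (0.40, 95% interval 0.16 to 0.63, adjusted p = 0.0656). It shares 64 bases with Gm44710, on the other strand, which was at 106.1 TPM in control KD, against 138.6 TPM in *Yy1* KD. *Med23* and *Med24*, which touch each other in the complex, thus had log2 fold changes of opposite sign, and the sum over the tail was 276.2 TPM in control KD, against 261.8 TPM in *Yy1* KD, with overlap between the groups.

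The 7 transcripts of the kinase module were lower in sum. They summed to 192.2, 189.9 and 194.1 TPM in control KD and to 145.5, 145.5 and 146.9 TPM in *Yy1* KD, 76.0% of control. The groups did not overlap. The sums of the head, the middle, the tail and *Med14* overlapped with the modules as given here, but with *Med27* to *Med30* counted in the head, as in an older assignment, the remaining 5 tail subunits summed to 115.5, 123.4 and 108.4 TPM in control KD and to 86.9, 82.7 and 86.8 TPM in *Yy1* KD, 73.8% of control and likewise without overlap. The 11 head subunits of that assignment were also without overlap, at 103.7% of control. Of the 7 kinase module transcripts, 6 had a negative log2 fold change, beside 9167 of the 17353 genes tested, and the median was -0.24. Downregulated with an adjusted p under 0.05 were 2 of the 7, beside 4.20% of all genes tested. The fall was uneven. *Med13* went from 42.4 to 18.2 TPM, whereas *Med12*, *Med13l* and *Cdk19* had log2 fold changes of -0.12, -0.06 and 0.11. The sum over all 33 subunits was 1246 ± 28.9 TPM in control KD, against 1214 ± 16.8 TPM in *Yy1* KD, with overlap.

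*Med13*, the subunit that anchors the kinase module to the core, had the largest change in the complex. It was at 42.9, 42.7 and 41.6 TPM in control KD and at 17.7, 19.8 and 16.9 TPM in *Yy1* KD, so that the highest *Yy1* KD value was below the lowest control KD value by far more than the spread of either group. The mean fell to 42.8% of control (42.4 ± 0.684 to 18.2 ± 1.51 TPM, log2 fold change -1.18, SE 0.10, adjusted p = 0.00382). *Med13* (ENSMUSG00000034297.14, chr11:86267033-86357602, minus strand) rested on 908 to 4781 read pairs per library, and its call held with each library left out in turn. It shares 800 bases, 7.4% of its exons, with the antisense transcript Brip1os, which was at 8.36 TPM in control KD, against 5.79 TPM in *Yy1* KD (log2 fold change -0.46, adjusted p = 0.159).

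*Med12l*, the paralog of the kinase activator *Med12*, was downregulated more modestly. It was at 37.1, 36.4 and 37.3 TPM in control KD and at 28.1, 23.8 and 26.1 TPM in *Yy1* KD, without overlap, and the mean fell to 70.5% of control (log2 fold change -0.49, SE 0.09, adjusted p = 0.0346). The call was the least firm of the 5: it was lost whichever library was left out, at adjusted p between 0.0547 and 0.116. *Med12l* (ENSMUSG00000056476.13, chr3:59005825-59318682, plus strand) shares 1948 bases, 15.3% of its exons, with *Igsf10* on the other strand, which was at 2.04 TPM in control KD, against 1.05 TPM in *Yy1* KD. *Cdk8*, the catalytic subunit, just missed the threshold. It was at 34.9, 33.2 and 33.6 TPM in control KD and at 24.2, 25.5 and 27.1 TPM in *Yy1* KD, 75.5% of control without overlap (log2 fold change -0.39, 95% interval -0.60 to -0.18, adjusted p = 0.0504). *Ccnc*, which encodes cyclin C, was at 17.1, 19.0 and 19.0 TPM against 15.8, 14.8 and 15.4 TPM, also without overlap (-0.24, adjusted p = 0.213).

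*Cdk8*, *Med12* and *Med13* were each read against a paralog, because either copy can fill the place in the complex. *Cdk19* was at 29.4, 27.3 and 29.7 TPM in control KD and at 31.9, 29.97 and 31.6 TPM in *Yy1* KD, so that *Cdk8* made up 54.3, 54.9 and 53.1% of the *Cdk8* and *Cdk19* transcripts in control KD and 43.1, 45.9 and 46.2% in *Yy1* KD. By TPM, the higher of the 2 kinases was therefore *Cdk8* in every control KD library and *Cdk19* in every *Yy1* KD library. Which copy of a pair ranks higher depends on the exon lengths used for TPM, here 9832 bases for *Cdk8* and 5846 for *Cdk19*. The part of these lengths was not tested. *Med13l* was at 18.2, 17.8 and 20.3 TPM in control KD and at 17.4, 19.2 and 17.0 TPM in *Yy1* KD (log2 fold change -0.06, 95% interval -0.32 to 0.19), and the share of *Med13* went from 70.3, 70.6 and 67.2% to 50.4, 50.8 and 49.8%. By TPM, *Med13* thus went from the main copy to a level like that of *Med13l*, and the pair together went from 61.2 to 36.0 TPM. The exact permutation test gave p = 0.1 for both shares, the smallest possible here. *Med12*, at 12.7, 13.6 and 12.5 TPM in control KD, against 10.3, 12.3 and 12.8 TPM in *Yy1* KD, was the minor copy by TPM throughout. Its share of 25.9 ± 1.11% in control KD overlapped with the 31.3 ± 3.93% in *Yy1* KD (exact permutation p = 0.2).

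**Figure D3:**
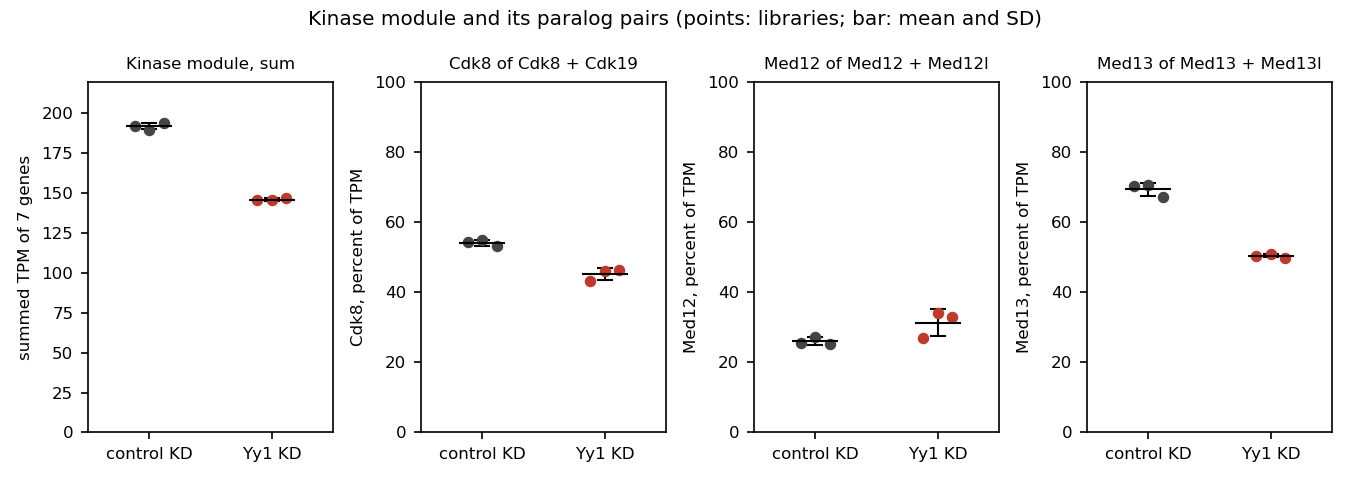
Left, summed TPM of the 7 kinase module transcripts; the other panels, the percentage of TPM that *Cdk8*, *Med12* and *Med13* made up in the sum with their paralogs, with 1 point per library and bars for mean and SD (n = 3). The groups are apart in the sum and in the shares of *Cdk8* and *Med13*, and the share of *Med12* overlaps.

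The downregulated subunits were all long. *Med13*, *Med25*, *Med24* and *Med12l* have 10840, 7629, 6528 and 12763 exonic bases, and *Med31*, the upregulated subunit, has 1730. Over the 33 subunits exon length and log2 fold change had a Spearman correlation of -0.64, given as a description across genes that share the same 6 libraries. Over the 17312 genes tested with a known exon length it was -0.07. The 12 subunits with at least 6000 exonic bases had a median log2 fold change of -0.29, against -0.06 for all genes of that length, the 10 with under 3000 had 0.13, against -0.00, and the 11 between had -0.06, against -0.04. Among the long subunits *Med13l*, the longest at 15427 bases, had -0.06, and *Med23*, with 6692 bases, had 0.37. The part of exon length, which also enters the calculation of TPM, was not tested.

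The partners that Mediator meets at the promoter were read from 6 lists with 79 genes tested, of which 8 were downregulated and 4 upregulated, beside 4.20% and 1.92% of all genes tested. The lists were chosen with earlier results of these data known, so these counts are a description and no measure of enrichment. None of the 12 RNA polymerase II subunits passed the test, 3 had an unadjusted p under 0.05, a share near the 23.8% of all genes tested, and their median log2 fold change was 0.00. Of 18 general transcription factors, *Gtf2f1*, the large subunit of TFIIF, rose from 259.2, 240.5 and 250.4 TPM to 367.0, 369.3 and 330.1 TPM (log2 fold change 0.50, adjusted p = 0.0178). *Mnat1*, the assembly factor of the TFIIH kinase, rose from 18.9 to 25.3 TPM (0.40, adjusted p = 0.0499), and none was called lower. Of 20 pause and elongation factors tested, *Supt4a*, a subunit of DSIF, rose from 127.2 to 183.8 TPM (0.53, adjusted p = 0.0151). Its reads that also map to the near-identical copy *Supt4b* may not have been counted. Of the 4 genes of the negative elongation factor NELF, 2 fell, *Nelfcd* from 67.0 to 45.2 TPM (-0.56, adjusted p = 0.0316) and *Nelfa* from 44.1 to 34.1 TPM (-0.36, adjusted p = 0.0499). *Nelfb* (-0.50, adjusted p = 0.0650) and *Nelfe* (0.07, adjusted p = 0.667) did not pass the test. The elongation factor gene *Ell3* fell from 14.3 to 8.02 TPM (-0.77, adjusted p = 0.0317). *Ell3* shares 1436 of its 2190 exonic bases with *Serinc4*, and read pairs on the shared bases could not be told apart and were split between the 2 genes. The median of this list was -0.10.

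Of 9 coactivators that work beside Mediator, 2 were called lower and 1 higher, beside 4.20% and 1.92% of all genes tested. Among them *Thrap3*, whose product was first purified with Mediator and now is known mainly for RNA processing, had the largest fall. It was at 75.3, 90.8 and 88.4 TPM in control KD and at 15.2, 14.4 and 15.4 TPM in *Yy1* KD (log2 fold change -2.42, adjusted p = 0.000336). *Bclaf1*, which encodes a protein closely related to THRAP3, moved the other way, from 67.2, 65.3 and 63.3 TPM to 107.3, 102.2 and 79.6 TPM (0.54, adjusted p = 0.0496). *Crebbp*, the gene of the acetyltransferase CBP, fell from 95.3 to 76.5 TPM (-0.31, adjusted p = 0.0432). Of 21 activators known to bind a subunit, 16 were tested. A negative log2 fold change was found for 11 of them, beside 9167 of the 17353 genes tested. Against 4.20% of all genes tested, 3 of the 16 were called lower. These were *Rarg*, a retinoic acid receptor that binds MED1 (115.3 to 77.4 TPM, -0.57, adjusted p = 0.0127), *Ctnnb1*, whose product β-catenin binds MED12 and which shares 759 of its 5192 exonic bases with *Ulk4* (133.2 to 92.0 TPM, -0.53, adjusted p = 0.0257), and *Rest*, a repressor that binds MED19 and MED26 (394.4 to 314.1 TPM, -0.33, adjusted p = 0.0432).

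Activators that bind MED25 and MED23 did not pass the test. *Etv5* and *Atf6*, which bind MED25, had log2 fold changes of 0.35 (adjusted p = 0.370) and 0.01 (adjusted p = 0.970), and *Elk1*, which binds MED23, had 0.08 (adjusted p = 0.786). Of 7 immediate early genes, some of which are induced through ELK1 and MED23, 4 were tested and none was called. An unadjusted p under 0.05 was found for 2 of the 4, beside 23.8% of all genes tested, and the median was 0.10. When any 1 library was left out, 1 or 2 genes of the 6 lists were called lower and 0 to 2 higher. Calls over all genes tested also fell, from 6.11% to between 0.432% and 2.41%.

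**Figure D4:**
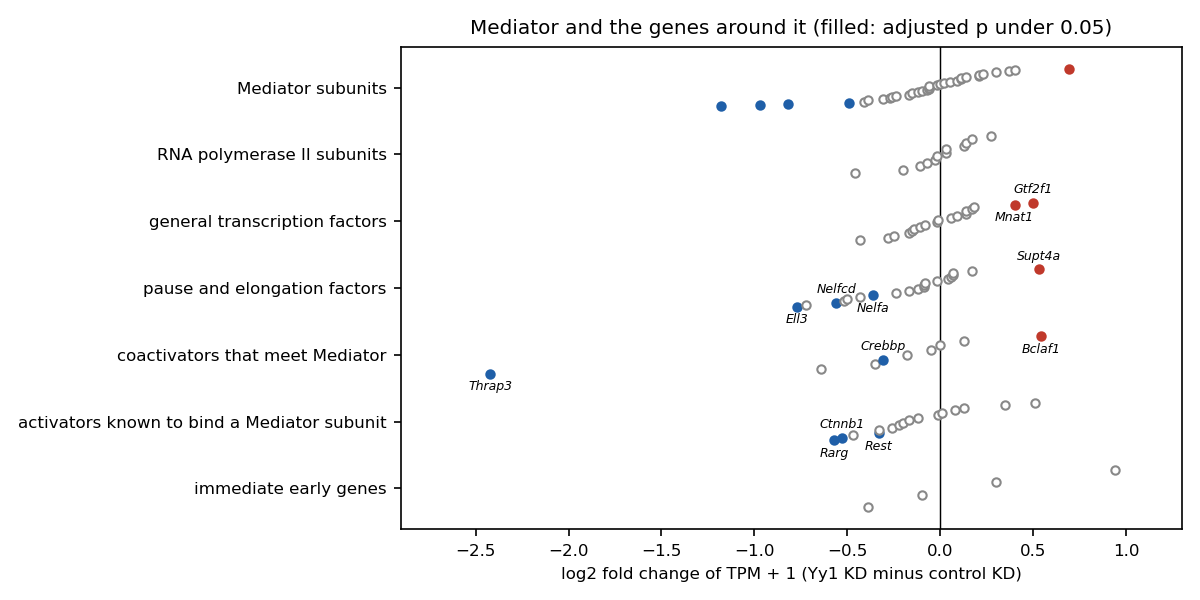
Log2 fold change of TPM + 1 (*Yy1* KD minus control KD) for the genes tested of the Mediator complex and of the 6 lists around it, with filled points for an adjusted p under 0.05. The RNA polymerase II subunits have no filled point, the general transcription factors only higher ones, and *Thrap3* at -2.42 lies far from all others.

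Over 15 other settings of the analysis, 6 of which left out a library, none of the 5 called subunits changed direction. For those 6 this was fixed in advance, since groups without overlap keep their direction whichever library is left out. The same holds for the pseudocount of 0.1. The other filters, the fit without a variance trend and the replicate block leave the fold change as it is, so there too the direction was fixed. *Med13* was called in all 15, with log2 fold changes from -1.25 to -1.10, *Med25* in 11 (-1.05 to -0.88) and *Med24* in 13 (-0.89 to -0.74). *Med31* was called in 7 (0.60 to 0.76) and *Med12l* in 5 (-0.55 to -0.42). *Cdk8*, *Med23* and *Med29* were called in 3, 3 and 2 of the 15, which include testing fewer genes, and in none that left out a library.

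**Figure D5:**
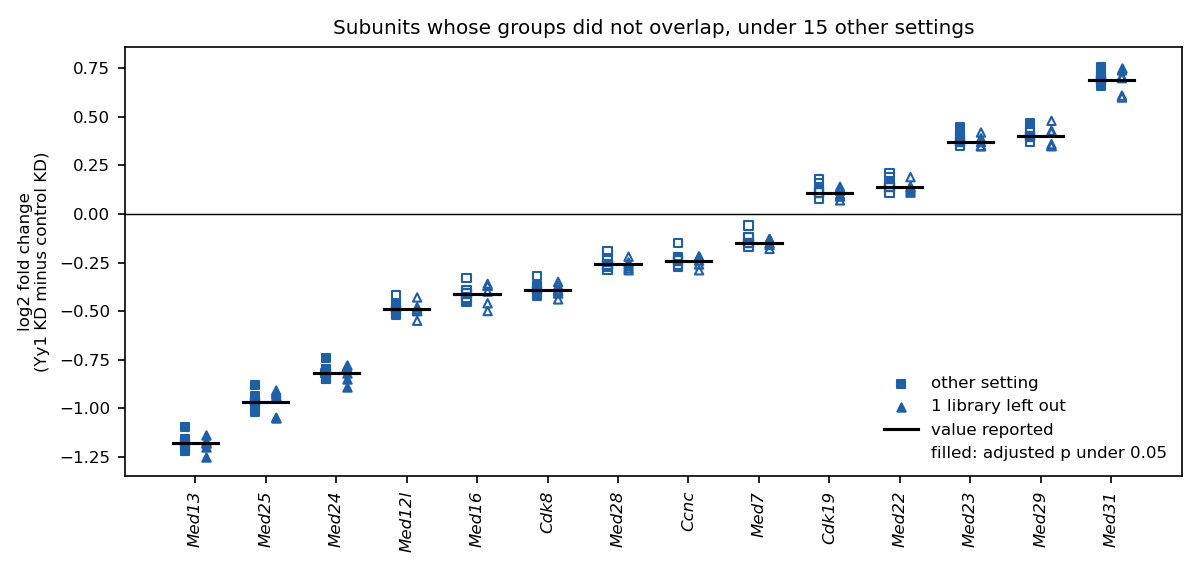
Log2 fold change (*Yy1* KD minus control KD) of the 14 Mediator subunits whose groups did not overlap, with squares for 9 other settings, triangles for the 6 fits that left out a library, a line for the value reported and filled symbols for an adjusted p under 0.05. No subunit shown crosses 0, and *Med13* is filled throughout. For the triangles and the square of the other pseudocount, the side of 0 follows from the lack of overlap. The other filters, the variance trend and the replicate block leave the fold change as it is.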

How the data were processed

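RNA from pooled morulae (3 control KD and 3 *Yy1* KD libraries) was sequenced as read pairs. As the authors describe, adaptor bases were removed with Trim Galore (0.6.7), reads were aligned to mm10 with HISAT2 (2.2.1), ribosomal reads were removed with bedtools, and featureCounts (2.0.1) counted pairs per GENCODE gene without strand, splitting pairs between overlapping genes. The authors deposited TPM values. From these, genes with at least 1 TPM in at least 3 libraries were tested on log2(TPM + 1) with limma (3.58.1, R 4.3.3) with a variance trend, two-sided, and p-values were adjusted by Benjamini-Hochberg over all genes tested. The added 1 makes fold changes of low genes too small, and TPM cannot show a change in total RNA. The fit was tested on simulated data. Exon lengths and overlaps came from GENCODE vM21, which held 99.5% of the identifiers, and the authors used a later release. Depth was recovered from TPM and these lengths. Subunits called, those without overlap between groups and the kinase module paralogs were described in full. List genes were named where called, and up to 3 uncalled per list where they bind a called subunit. *Elk1* and the uncalled NELF genes *Nelfb* and *Nelfe* were named as well. The members and lists were chosen with earlier results of these data known. Alternatives covered the pseudocount, filter, scaling, variance trend, replicate block and each library left out. limma-voom on recovered read pairs, a table of genes of at least 200 nt and module sums with *Med27* to *Med30* in the head were added after the data were seen.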

Additional observations from a re-analysis of the deposited data

How the results depend on the processing

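Of 237 alternative values of counts, medians, sums and shares, 157 stayed within their limit. For single genes, 222 of 255 kept their direction and stayed called or not called. These include genes not called in the reported fit, which count when they stay so. The called subunits kept their call in 5 (*Med12l*) to 15 (*Med13*) of 15 settings. The reported calls were 728 genes lower and 333 higher over all genes, 4 and 1 subunits, and 8 and 4 genes of the lists around Mediator. Without a filter 270 and 77 genes, 0 higher subunits and 2 and 2 list genes were called, and without the variance trend 382 and 132, 0 higher subunits and 4 and 0 list genes. With limma-voom 1181 and 869 genes, 2 higher subunits and 13 lower list genes were called, and the subunit median was -0.03. With genes of at least 200 nt, 13 list genes were lower and the kinase module median was -0.27. A pseudocount of 0.1 left 2 higher list genes, and a mean TPM of at least 5 gave 3 higher subunits. Of all genes tested, 5.64% and 11.4% were called in these 2 fits. The share was 8.92% with genes of at least 200 nt, 5.71% with median-ratio scaling and 5.39% with quantile normalization. Median-ratio scaling gave 5 lower list genes and a kinase module sum of 77.4% of control. Quantile normalization gave 3 higher subunits, 5 lower list genes, medians of 0.01 (subunits), 0.13 (middle), -0.19 (tail) and -0.15 (kinase module), sums of 102.3% (all), 113.3% (middle), 99.96% (tail) and 80.5% (kinase module) of control, and turned *Med13l* to 0.02. The tail median was -0.41 and its sum 73.8% of control with *Med27* to *Med30* in the head, and 12 promoters held the core and 2 the consensus before the start. Beyond fewer genes or samples in a fit, the cause was not tested.

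With a replicate block 218 genes were lower and 69 higher, 2 and 0 subunits and 1 and 0 list genes were called, and *Med24* had an adjusted p of 0.0501 (0.000836 to 0.0528 over its alternatives). Deviations from the group mean correlated at -0.00388, 0.0319 and 0.0747 for samples sharing a number, and at -0.0713 to 0.0411 for the other pairs. Not every sample correlated best with its own number. With 3 samples per group these values cannot decide whether the numbers pair the samples.

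Leaving out a library gave 53 to 326 lower and 22 to 92 higher genes, fewest without control KD replicate 3, with 1 to 3 lower and 0 to 1 higher subunits, and 1 to 2 lower and 0 to 2 higher list genes. Medians ran from -0.11 to -0.01 (subunits), -0.00 to 0.13 (middle), -0.26 to -0.21 (tail) and -0.29 to -0.22 (kinase module).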

Other observations

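Several Mediator genes share a promoter region with a gene read in the other direction. Protein-coding genes that start within 1000 bases of a subunit on the other strand were looked at after the values were seen. *Rpl7a*, a ribosomal protein gene that starts 87 bases from *Med22*, rose from 772.6, 717.0 and 749.5 TPM in control KD to 1066, 993.9 and 933.5 TPM in *Yy1* KD (log2 fold change 0.42, limma adjusted p = 0.0318), while *Med22* had 0.14 and did not pass the test. *Tm7sf3*, which shares 197 exonic bases with *Med21*, fell from 16.8, 15.7 and 17.7 TPM to 9.59, 9.90 and 10.1 TPM (-0.71, adjusted p = 0.0213), while *Med21* had 0.30. Among those not called, *Paf1* beside *Med29* had -0.06, *Bysl* beside *Med20* had 0.06, and Gm28635 and *Tmx2* beside *Med19* had -0.31 (adjusted p = 0.0587) and -0.62 (adjusted p = 0.111), against 0.23 for *Med19*. Whether the members of a pair differ in their change was not tested.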
